A study of Mus musculus with 8 samples.

Results

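The endocannabinoid system was described through 8 genes, taken as the rows of the expression values that carry the names Cnr1, Dagla, Daglb, Napepld, Mgll, Faah, Abhd6 and Abhd12. All 8 were found among 13996 genes, and all 8 were among the 13982 genes that were tested. RNA had been sequenced from the brain cortex of male C57BL/6 mice, 4 kept on a normal diet and 4 on a high fat diet (HFD) for 8 weeks from the age of 8 weeks, with 1 rRNA-depleted library per mouse at 16 weeks. By the description of the series, the HFD mice had gained weight and tolerated glucose poorly. The question was which RNAs of the cortex differ between the diets.

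Endocannabinoids are lipid messengers that a postsynaptic neuron makes on demand and that act backwards on the presynaptic terminal. The CB1 receptor, encoded by Cnr1, is a receptor coupled to inhibitory G proteins, and its activation lowers transmitter release. It is dense on the terminals of interneurons that contain cholecystokinin, and it is also abundant in projection neurons of the striatum and on fibres of the cerebellum. The diacylglycerol lipases (Dagla and Daglb) make 2-arachidonoylglycerol, which monoacylglycerol lipase (Mgll), Abhd6 and Abhd12 cleave. The phospholipase D of Napepld makes anandamide and related amides, which the amidase of Faah cleaves.

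Values are FPKM, fragments scaled to transcript length and to the mapped reads of the library, so levels of different genes may be set side by side on a per-length scale. Each difference is a log2 fold change of FPKM + 0.1, HFD minus normal, from limma across all genes, and a gene was called when its Benjamini-Hochberg adjusted p over 13982 genes was below 0.05. Of all genes tested 33.1% were called, 17.7% as higher and 15.3% as lower in HFD mice, and the values of the diets did not overlap for 31.9%. Among the 8 endocannabinoid genes 2 were called, Cnr1 as lower and Dagla as higher, which is no larger a share than among all genes. Both were also without overlap between the diets. No member changed by more than 50% with limma's adjusted p below 0.05 (0 of 8, against 7.13% of all genes). An unadjusted p below 0.05 in limma was found for 4 of 8, near the 44.3% of all genes. The median log2 fold change was 0.14 over the 8 members and 0.00311 over all genes.

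Markers of other brain regions and of glia differed between the mice, and their values are given here because several results below moved with them. The summed FPKM of 10 striatal markers, led by Penk, Ppp1r1b and Pde10a, ran from 243.1 to 449.6 in normal mice and from 80.7 to 89.7 in HFD mice, and 10 of 10 were called lower. The summed FPKM of 8 cerebellar markers, led by Car8, Gabra6 and Zic1, was 22.4, 238.6, 315.9 and 72.2 in normal mice 1 to 4 and 15.5 to 17.5 in HFD mice. Of these, 5 of the 7 tested were called lower, and Gabra6 was listed at 0 in 1 HFD mouse. Markers of cortical excitatory neurons, led by Slc17a7, Lamp5 and Neurod6, had sums of 323.9 to 482.8 in normal and 512.5 to 631.2 in HFD mice, with 5 of 8 called higher. In normal mice 2 and 3 these sums (340.9 and 323.9) were below the striatal sums (369.2 and 350.8). The lists hold different genes, so this order does not compare the amounts of cortex and striatum. Oligodendrocyte markers (Mbp, Mobp and Cnp leading) were called lower for 8 of 8, with sums of 1721.2 to 2863.3 in normal and 1204.9 to 1680.1 in HFD mice. Thalamic markers were called lower for 1 of 4 tested, choroid plexus markers for 2 of 4 and markers of GABAergic neurons for 3 of 4, with none of these called higher. The thalamic sum was 27.8, 78.7, 68.8 and 20.1 in normal mice 1 to 4 and 16.4 to 19.9 in HFD mice. The choroid plexus sum was 341.4 to 723.6 in normal mice and 20.7 to 76.2 in 3 HFD mice, but 938.3 in HFD mouse 4, above every normal mouse. Markers of cholecystokinin and VIP interneurons (2 higher and 2 lower of 7), astrocytes (2 and 2 of 8), microglia (0 of 8) and endothelium (1 higher and 2 lower of 5) were mixed or not called. In such bulk samples, fewer cells of a type and less RNA per cell cannot be told apart.

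The level of the 8 genes spanned a wide range. Abhd12 was the highest, with a mean of 129.3 FPKM in normal and 116.3 in HFD mice. Mgll followed with 54.3 and 63.4, and Cnr1 with 46.7 and 37.2. In normal mice the values of Mgll and Cnr1 overlapped, whereas in HFD mice every Mgll value (59.7 or more) was above every Cnr1 value (38.7 or less). Faah, Abhd6 and Dagla lay close together at means of 17.4 to 21.3 FPKM, with overlapping values in both diets. Daglb (11.6 and 12.2) and Napepld (5.33 and 6.03) were lower and separate from their neighbours. Among all genes tested by mean FPKM, the members lay between the 34.4th percentile for Napepld and the 96.4th for Abhd12.

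**Figure D1:**
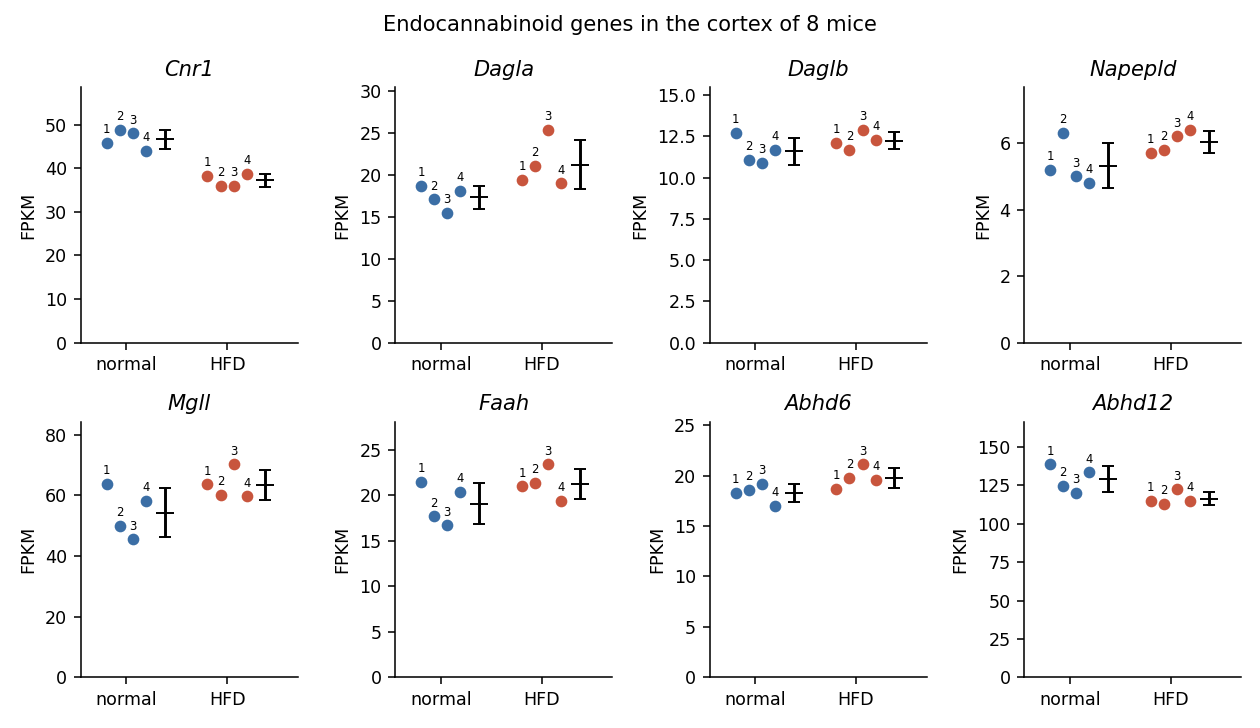
FPKM of the 8 endocannabinoid genes (vertical axes, each from 0) in normal and HFD mice, with each point numbered by mouse and the mean ± SD of the 4 mice of a diet beside it. The diets are separate for Cnr1 and Dagla and overlap for the other 6 genes.

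Cnr1 was lower in each HFD mouse than in each normal mouse. The gene (ENSMUSG00000044288.6; GRCm38 chromosome 4, 33924593 to 33948831, plus strand) was not overlapped by another annotated gene. Its FPKM was 45.8, 48.8, 48 and 44 in normal mice 1 to 4 and 38.2, 36, 35.9 and 38.7 in HFD mice 1 to 4. The values within a diet were close together, with a coefficient of variation of 4.66% in normal and 3.92% in HFD mice, and a gap between 38.7 and 44 separated the diets. The HFD mean was 79.7% of the normal mean (46.7 ± 2.17 against 37.2 ± 1.46, SD, n = 4 each), which is -0.33 on the log2 scale (standard error 0.049, limma adjusted p = 0.00174). The size of this change was at the 75.4th percentile of all genes tested. Omission of any single mouse left it between -0.35 and -0.30, and the call was kept in 8 of 8 such fits.

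The striatal, cerebellar, oligodendrocyte and thalamic sums were lower along with Cnr1 in HFD mice, each without overlap between the diets. Normal mice 2 and 3, with the highest cerebellar sums, also held the highest Cnr1 of the 8 mice. Without these mice the log2 fold change of Cnr1 was -0.27 (limma adjusted p = 0.0135), so it was still called. With the mean log2 level of the cerebellar markers as a covariate it was -0.24 (standard error 0.081, limma adjusted p = 0.127) and no longer called, in a fit that called 2.97% of all genes. Because the striatal, cerebellar, oligodendrocyte and thalamic sums each separate the diets, these shares and the diet cannot be told apart for Cnr1. This also limits the fit with the cerebellar covariate. In normal mice the striatal sums ran in another order (highest in mouse 1, lowest in mouse 4) than Cnr1. The oligodendrocyte and thalamic sums ran there in the order of Cnr1, from mouse 2 through mouse 3 and mouse 1 to mouse 4. Among HFD mice neither sum followed the order of Cnr1. The part of oligodendrocytes and thalamus in the change of Cnr1 was not tested. Cck, a marker of the interneurons that carry the receptor but also present in excitatory neurons, was 221.1 to 367.3 FPKM in normal and 321.1 to 401.3 in HFD mice, with overlapping values.

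The genes with the profile nearest to Cnr1 over the 8 mice, by the root mean square difference of centred log2 values, were Vdac3 (0.0187), a channel of the outer mitochondrial membrane, and H3f3a (0.019), which encodes a histone H3.3. Vdac3 was 74.6 ± 3.44 FPKM in normal and 58.6 ± 2.99 in HFD mice, and H3f3a was 102.4 ± 5.2 and 80.3 ± 4.05 (SD, n = 4 each). Because H3f3a has near-identical copies that may share its reads, its level is uncertain.

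Among the enzymes of synthesis, Dagla was called higher in HFD mice. Dagla (ENSMUSG00000035735.10; chromosome 19, 10245265 to 10304877, minus strand), the main diacylglycerol lipase of the adult brain, was 18.7, 17.1, 15.5 and 18.1 FPKM in normal mice 1 to 4 and 19.4, 21.1, 25.4 and 19 in HFD mice 1 to 4. The diets did not overlap, but only 0.3 FPKM lay between the highest normal and the lowest HFD mouse, and HFD mouse 3 stood above the others of its diet. The log2 fold change was 0.28 (standard error 0.096, limma adjusted p = 0.0471), from 17.4 ± 1.4 to 21.2 ± 2.93 (SD, n = 4 each). This call depended on single mice. It was kept in 2 of 8 fits with 1 mouse fewer, namely without normal mouse 1 and without HFD mouse 4, and without HFD mouse 3 the change was 0.19 (limma adjusted p = 0.084). It was also lost with median-ratio rescaling, at 0.28 (limma adjusted p = 0.0521).

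Daglb (ENSMUSG00000039206.13; chromosome 5, 143464584 to 143505942, plus strand), the second diacylglycerol lipase, was 12.7, 11.1, 10.9 and 11.7 FPKM in normal and 12.1, 11.7, 12.9 and 12.3 in HFD mice. The values of the diets overlapped, and the log2 fold change was 0.080 (95% interval -0.058 to 0.22, limma adjusted p = 0.342). At its 3' end Daglb shares 2309 of its 9567 exon bases with Rac1 on the opposite strand. Rac1 was at 82.5 to 93 FPKM and was called lower in HFD mice (log2 fold change -0.12, limma adjusted p = 0.0284). By the study's methods the libraries were made with a stranded kit. Since the sources used here do not say whether counting used strand, reads of Rac1 in Daglb cannot be told apart. Annotated antisense genes also overlap Dagla and Mgll, with the same limit. Dagla exceeded Daglb in each mouse. The ratio of the FPKM was 1.42 to 1.55 in normal and 1.54 to 1.97 in HFD mice, a difference of 0.20 on the log2 scale that was not tested, with overlap at the lowest HFD mouse.

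Napepld (ENSMUSG00000044968.16; chromosome 5, 21662901 to 21701396, minus strand) was 5.2, 6.3, 5 and 4.8 FPKM in normal and 5.7, 5.8, 6.2 and 6.4 in HFD mice. Normal mouse 2 was at the level of the HFD mice, and the other normal mice were below all of them. The log2 fold change was 0.18 (95% interval -0.024 to 0.39, limma adjusted p = 0.154). Without normal mouse 2 it was 0.26 (limma adjusted p = 0.0339), past the threshold.

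Among the enzymes of hydrolysis none was called. Mgll (ENSMUSG00000033174.17; chromosome 6, 88724412 to 88828360, plus strand), the principal lipase for 2-arachidonoylglycerol in brain, was 63.7, 50, 45.5 and 58.1 FPKM in normal and 63.6, 60.1, 70.2 and 59.7 in HFD mice. The normal mice varied most here, with a coefficient of variation of 15%, the largest among the members, and normal mouse 1 lay within the HFD values. The log2 fold change was 0.23 (95% interval 0.00433 to 0.46, limma adjusted p = 0.107). Without normal mouse 1 it was 0.31 (limma adjusted p = 0.029), and this was the only mouse whose omission brought a call.

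Faah (ENSMUSG00000034171.13; chromosome 4, 115967145 to 116017926, minus strand) was 21.5, 17.7, 16.7 and 20.4 FPKM in normal and 21, 21.4, 23.4 and 19.4 in HFD mice. The values of the diets overlapped, with normal mice 2 and 3 below all others, and the log2 fold change was 0.16 (95% interval -0.035 to 0.36, limma adjusted p = 0.183). Abhd6 (ENSMUSG00000025277.14; chromosome 14, 8002902 to 8056763, plus strand), a postsynaptic hydrolase, was 18.3, 18.6, 19.2 and 17 FPKM in normal and 18.7, 19.8, 21.1 and 19.6 in HFD mice. Its log2 fold change was 0.12 (95% interval -0.00920 to 0.24, limma adjusted p = 0.138).

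Abhd12 (ENSMUSG00000032046.15; chromosome 2, 150832493 to 150904741, minus strand), which also cleaves lysophosphatidylserine, was the enzyme with a negative change. Its FPKM was 138.7, 124.9, 120.2 and 133.5 in normal and 115.1, 112.8, 122.4 and 114.9 in HFD mice. HFD mouse 3 lay above normal mouse 3, and apart from these mice the diets were separate. The log2 fold change was -0.15 (95% interval -0.27 to -0.030, limma adjusted p = 0.057). It was called lower without normal mouse 3 (-0.19, limma adjusted p = 0.0333), with quantile normalization (-0.14, limma adjusted p = 0.0458) and with median-ratio rescaling (-0.16, limma adjusted p = 0.04998).

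**Figure D2:**
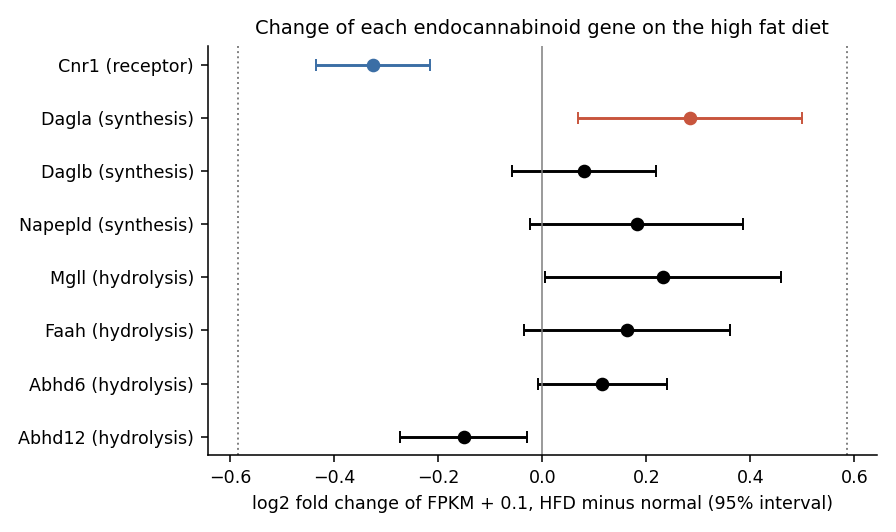
Log2 fold change of FPKM + 0.1 (horizontal axis, HFD minus normal) for each endocannabinoid gene, with its 95% interval from limma and dotted lines at a change of 50%. Cnr1, at -0.33, and Dagla, at 0.28, were called, and no gene reached the dotted lines.

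Of the 7 enzymes, 5 shared an order among the normal mice. Normal mouse 3 held the lowest value of the 8 mice for 4 members (Dagla, Daglb, Mgll and Faah), and HFD mouse 3 held the highest for 5 (those 4 and Abhd6). Within the normal diet Dagla, Daglb, Mgll, Faah and Abhd12 followed 1 order, from mouse 1 through mouse 4 and mouse 2 to mouse 3. Napepld and Abhd6 did not follow it, with Abhd6 highest of the normal diet in mouse 3. Among HFD mice Dagla and Faah shared an order, from mouse 3 through mouse 2 and mouse 1 to mouse 4. The cortical excitatory sums and those of cholecystokinin and VIP interneurons also ran in that order among HFD mice. The other enzymes each had their own. The order of the 5 is the reverse of the order of the cerebellar sums, which the astrocyte and GABAergic neuron sums share. It is also the order of the microglial sums. Among all genes tested 7.61% followed the order of the 5. Without normal mice 2 and 3, which held the highest cerebellar and the lowest cortical excitatory sums, the log2 fold changes of Mgll, Faah and Daglb were 0.056, 0.021 and 0.0062. The same omission gave 0.20 for Dagla (limma adjusted p = 0.246), 0.26 for Napepld (limma adjusted p = 0.0629) and 0.16 for Abhd6 (limma adjusted p = 0.109), while Abhd12 was called lower at -0.23 (limma adjusted p = 0.0213). With the cerebellar markers as a covariate, Mgll, Faah and Daglb turned to -0.16, -0.15 and -0.099, and Dagla was at 0.084. In the same fit the changes of Abhd12, Napepld and Abhd6 were larger than without the covariate, at -0.32 (limma adjusted p = 0.0512), 0.29 (limma adjusted p = 0.326) and 0.18 (limma adjusted p = 0.298). None of the 7 enzymes was called in it. Among HFD mice the cerebellar sums differed little, while HFD mouse 3 had the highest sums of cortical excitatory markers (631.2) and of oligodendrocyte markers (1680.1, against 1204.9 to 1248.6 in the other HFD mice). Abhd12 followed the order of the oligodendrocyte sums among HFD mice. Because the cerebellar sums separate the diets, cerebellar share and diet cannot be told apart in the fit with the covariate. The cortical excitatory sums separate the diets too (323.9 to 482.8 in normal and 512.5 to 631.2 in HFD mice). That share and diet likewise cannot be told apart for these enzymes. The part of tissue composition in these differences was otherwise not tested.

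**Figure D3:**
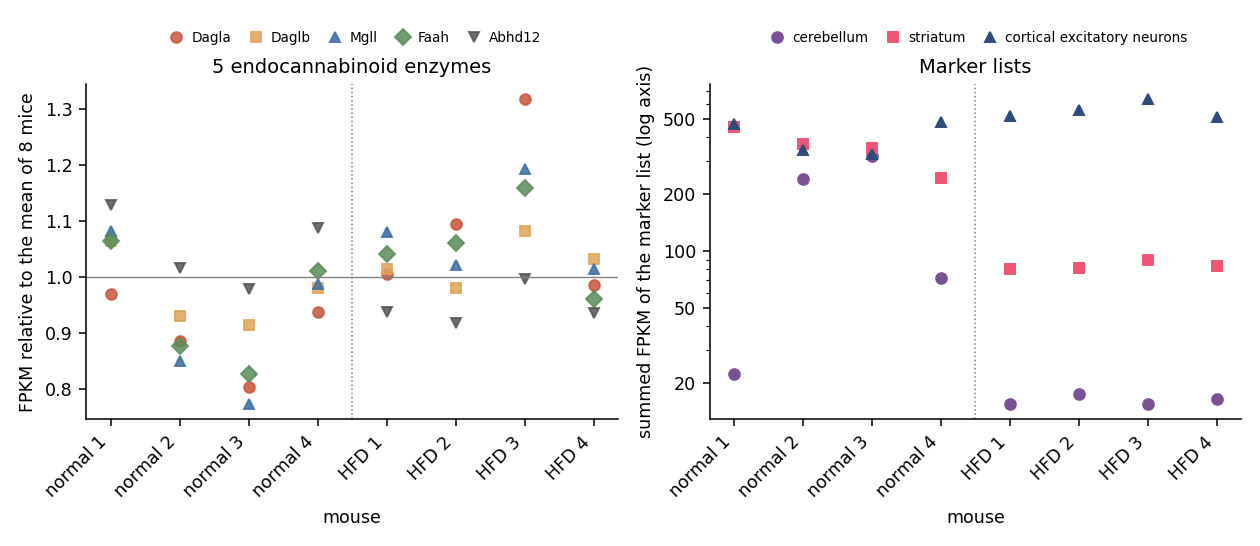
FPKM of 5 enzymes relative to their mean over the 8 mice (left) and the summed FPKM of 3 marker lists on a log axis (right), for each mouse. The 5 enzymes shown are those that share an order among the normal mice, and Napepld and Abhd6, which do not follow it, are not shown. The 5 are at their lowest of the normal diet in normal mouse 3, where the cerebellar sum is at its highest, 315.9.

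Ratios between members within a mouse do not depend on the scaling of that mouse, and were compared as a description without a test. The ratio of Mgll to Abhd12 separated the diets. On the log2 scale it was -1.12, -1.32, -1.40 and -1.20 in normal mice 1 to 4 and -0.86, -0.91, -0.80 and -0.94 in HFD mice 1 to 4. Thus Mgll was at 0.379 to 0.459 of the level of Abhd12 in normal mice and at 0.52 to 0.574 in HFD mice. Among normal mice this ratio ran in the reverse order of the cerebellar sums, and the part of tissue composition in it was not tested. The ratio of Dagla to Mgll, the enzymes that make and cleave 2-arachidonoylglycerol, overlapped, with log2 values of -1.77 to -1.55 in normal and -1.71 to -1.47 in HFD mice. Napepld to Faah, the corresponding pair for anandamide, was -2.09 to -1.49 and -1.92 to -1.60. Mgll to Abhd6 was 1.24 to 1.80 and 1.60 to 1.77. These 3 ratios thus had no separation between the diets.

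The genes with the profile nearest to Dagla were Camk2g (root mean square difference 0.0446), a calcium/calmodulin-dependent kinase, and Sulf2 (0.0469), a sulfatase of heparan sulfate. Camk2g was 69.1 ± 7 FPKM in normal and 84.5 ± 8.31 in HFD mice, and Sulf2 was 23.4 ± 2.05 and 28.2 ± 3.4 (SD, n = 4 each). Both shared with Dagla the lowest value in normal mouse 3 and the highest in HFD mouse 3. This is not independent of their choice, which was made by nearness to Dagla over the same mice.

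Further genes of the system comprised a list of 21 with other receptors, enzymes, CB1-binding proteins and lipid carriers. Of the 15 that were tested, 6 were called lower and 1 higher, which is 46.7% against 33.1% of all genes. Their median log2 fold change was -0.077. Cnr2, Gpr55, Gpr18, Trpv1, Hrasls5 and Alox12 are not analysed here. Fabp7, a fatty acid-binding protein of radial glia and astrocytes, changed by more than 50%, from 26.8, 48.9, 49.9 and 44.7 FPKM in normal to 17.6, 18.8, 11.2 and 18.7 in HFD mice (log2 fold change -1.34, standard error 0.22, limma adjusted p = 0.00257). The normal mice of this gene ran in the same order as the cerebellar, astrocyte and GABAergic neuron sums, an order that 7.22% of all genes tested followed. The other carriers called lower were Fabp5 and Scp2, at -0.41 and -0.23, and the enzymes called lower were Gde1, Gdpd1 and Abhd4, which serve other routes to N-acylethanolamines, at -0.26, -0.25 and -0.19. Sgip1, which binds the CB1 receptor and slows its internalization, was called higher at 0.22 (limma adjusted p = 0.0336), with overlapping values. These genes other than Fabp7 were chosen for naming after their values were seen. Without normal mice 2 and 3, 3 of the 15 were called, in a fit that called 19.6% of all genes, and with the cerebellar covariate 1 was, against 2.97% of all genes.

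Of 22 genes that supply or remove diacylglycerol, the substrate of Dagla and Daglb, 21 were tested, and 3 were called higher and 3 lower (28.6%), with a median log2 fold change of 0.12. Plcb2 is not analysed here. Homer3, a scaffold of metabotropic glutamate receptors that is prominent in Purkinje cells, was 6.4, 21.3, 25.1 and 9.2 FPKM in normal and 3, 2.4, 2.8 and 2.6 in HFD mice (log2 fold change -2.27, standard error 0.38, limma adjusted p = 0.00274). Plcb4, a phospholipase C of cerebellum and thalamus, was 24, 39.9, 39.5 and 24.2 and 14.2, 15.5, 19.2 and 14.4 (log2 fold change -0.97, limma adjusted p = 0.00457). Homer3 followed the order of the cerebellar, astrocyte and GABAergic neuron sums among normal mice, and Plcb4 was likewise highest in normal mice 2 and 3. Dgkb, a diacylglycerol kinase abundant in striatum, was lower at -0.65 (limma adjusted p = 0.000979), with 46.9 to 61 FPKM in normal and 31 to 35.2 in HFD mice. Among normal mice Dgkb was highest in mouse 1, as were the striatal sums, but otherwise did not follow their order. Chrm1, a muscarinic receptor that activates phospholipase C in cortical neurons, was higher at 0.66 (limma adjusted p = 0.00979), from 27.1, 19.1, 16.3 and 26.8 to 33.2, 34, 36.4 and 34.1. Its normal mice followed the same order as those of Dagla and Mgll. The glutamate receptor Grm5, which drives endocannabinoid synthesis at cortical synapses and was chosen for naming after its values were seen, was not called (62.2 ± 6.17 against 70.2 ± 6.09 FPKM, limma adjusted p = 0.132). With the cerebellar covariate 2 of the 21 were called, against 2.97% of all genes.

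Of 22 genes through which CB1 signals or is regulated, 13 were called higher and 3 lower (72.7% against 33.1% of all genes), and the median log2 fold change was 0.23. Adcy5, an adenylyl cyclase of striatal neurons, was the gene of this list that changed by more than 50%. It was 42.8, 37.5, 35 and 32 FPKM in normal and 24.1, 22, 22.7 and 22.4 in HFD mice (log2 fold change -0.68, standard error 0.081, limma adjusted p = 0.000842), and its normal mice followed the order of the striatal sums. The genes of this list named next were chosen after their values were seen. Adcy1, Adcy3, Adcy8 and Adcy9, other adenylyl cyclases, were called higher, at 0.33, 0.35, 0.47 and 0.27 on the log2 scale. Adcy2 was not called (0.13, limma adjusted p = 0.441). Adrbk2, a kinase that desensitizes receptors, rose from 20.7 ± 0.316 to 30.9 ± 1.33 (SD, n = 4 each; log2 fold change 0.57, limma adjusted p = 0.00014). Gnao1, the Go protein alpha subunit, rose from 100.4 ± 4.85 to 125 ± 7.12 (log2 fold change 0.32, limma adjusted p = 0.00321). The potassium channel subunits Kcnj9 and Kcnj6 rose by 0.43 and 0.49 on the log2 scale. Kcnj3, the other such subunit of the list, was not called (-0.069, limma adjusted p = 0.521). Gnai3 and Gnai1, inhibitory G protein alpha subunits, were lower at -0.25 and -0.13, and Gnai2 was not called (0.10, limma adjusted p = 0.14). Without normal mice 2 and 3, 13 of the 22 were called, against 19.6% of all genes, and with the cerebellar covariate 3 were, against 2.97%.

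Other members of the Abhd family, hydrolases related to Abhd6 and Abhd12, served as a comparison. Of 18 listed, 15 were tested, 1 was called higher and 4 lower (33.3%, against 33.1% of all genes), and the median log2 fold change was -0.049. Abhd15, Abhd16b and Abhd18 are not analysed here. Abhd17b, a depalmitoylase, was lower at -0.37 (limma adjusted p = 0.00286), Abhd5, a co-activator of triglyceride lipase, at -0.33 (limma adjusted p = 0.00609) and Abhd3 at -0.31 (limma adjusted p = 0.0247). Abhd8 was higher at 0.26 (limma adjusted p = 0.00556), from 118.4 ± 7.6 to 141.9 ± 3.35 FPKM (SD, n = 4 each). Abhd4, counted in this family as well as above, was the remaining one called. None of the 15 was called with a change of more than 50%, against 7.13% of all genes. An unadjusted p below 0.05 in limma was found for 7, near the 44.3% of all genes. Without normal mouse 2, or without normal mouse 3, 3 were called, in fits that called 23.6% and 25.9% of all genes, and with the cerebellar covariate 0 were, against 2.97%.

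**Figure D4:**
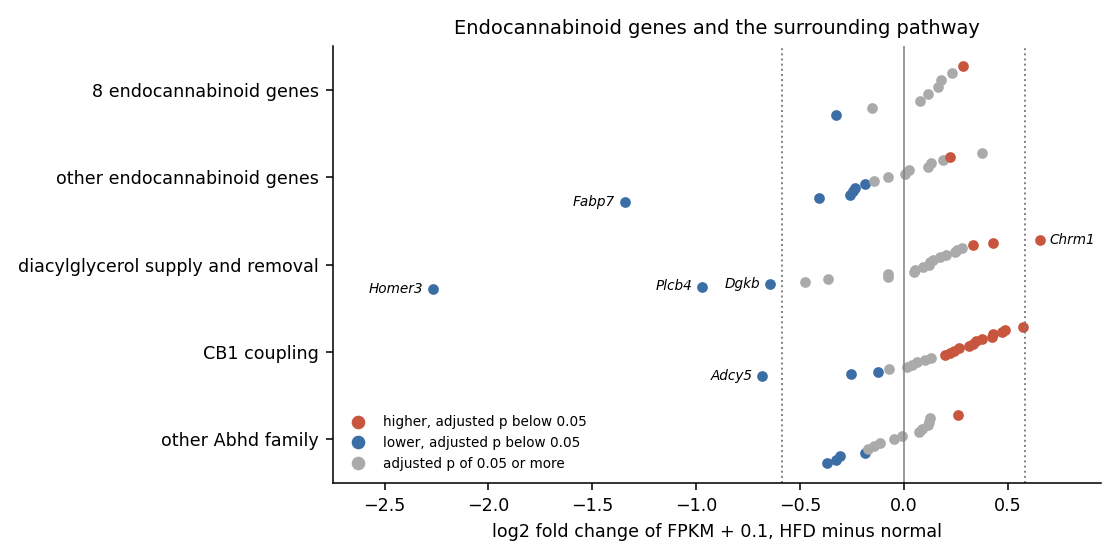
Log2 fold change of FPKM + 0.1 (horizontal axis, HFD minus normal) of each tested gene in the 8 endocannabinoid genes and in 4 lists of related genes, colored by limma's adjusted p, with dotted lines at a change of 50%. Homer3 lies farthest from 0, at -2.27, and 13 of 22 genes of CB1 coupling are called higher.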

How the data were processed

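Per the labels and the study's methods, the authors used Trimmomatic for trimming, STAR for alignment to mm10 and Cuffnorm for FPKM on GENCODE M17 (GRCm38.p6). Their versions are not given in the labels or methods. Because the deposited FPKM values are normalized and rounded to 0.1, read depth is unknown and counting intervals are not given. Sums of FPKM per mouse were 562431 to 639142. The filter of the study (mean FPKM of 1 or more, no value of 0) left out 14 of 13996 genes. From the deposited values, log2(FPKM + 0.1) was fitted with limma 3.58.1 (R 4.3.3) over all 8 mice with a variance trend, two-sided, and the procedure was tested on simulated data. Tables and figures used Python 3.11.15, pandas 2.3.3, scipy 1.17.1 and matplotlib 3.10.9. Coordinates are those of GENCODE M21 on GRCm38, a later release than that of the authors.

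The members and lists were chosen with earlier results of these data known. Named were the members, in each list the genes called with a change above 50% or, with none, the 4 lowest adjusted p, the leading 3 of main marker lists, and the 2 nearest profiles of each called member. Alternatives were the added constant (1 and 0.01), the filter (none, or a mean of at least 5), quantile normalization, median-ratio rescaling, a fit without the trend, a replicate block, the cerebellar covariate, and mice left out. The labels do not state that replicate numbers pair the mice, and the main fit did not pair them. Each animal is 1 library, and Salmon values were not used here. The result of 1 marker gene is not reported here.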

Additional observations from a re-analysis of the deposited data

How the results depend on the processing

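Cnr1 was called in 17 of 18 alternatives and Dagla in 7 of 18, and the added constant and the filters changed no call of a member. With the cerebellar markers as a covariate, 0 members were called by limma (2 with an unadjusted p below 0.05), Cnr1 was at -0.24 and Dagla at 0.084, and Mgll (-0.16), Faah (-0.15) and Daglb (-0.099) reversed, while Abhd12 (-0.32), Napepld (0.29) and Abhd6 (0.18) moved away from 0 by over 1.5 times. That fit called 3 genes of CB1 coupling, 2 of diacylglycerol supply, 1 of the other endocannabinoid genes and 0 of the Abhd family, and 415 of all genes against 4626. The cause was not tested. Without normal mice 2 and 3, Dagla was at 0.20 and uncalled, Abhd12 was called at -0.23, and 3 of the other endocannabinoid genes were called, against 19.6% of all genes. Median-ratio rescaling left Dagla at 0.28, uncalled, and Abhd12 called at -0.16, and quantile normalization called Abhd12 at -0.14. Without the variance trend 1 member was called, with Dagla at 0.28. In the fit with the replicate block 1 member was called, with Dagla at 0.28 (limma adjusted p = 0.115), and 3 of the Abhd family, and all genes called numbered 3390. Deviations of mice with the same number correlated at -0.109 to -0.0275 across genes, and 0 of 4 normal mice correlated best with their own number.

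With each mouse left out in turn, 1 to 3 members were called, in fits that called 23.6% to 33.0% of all genes. The log2 fold changes ranged from -0.35 to -0.30 for Cnr1, 0.19 to 0.33 for Dagla, 0.15 to 0.31 for Mgll, 0.13 to 0.26 for Napepld and -0.19 to -0.12 for Abhd12. The other endocannabinoid genes had 5 to 9 calls, diacylglycerol supply 6 to 8, CB1 coupling 11 to 14 and the Abhd family 3 to 5. Values near 5 FPKM, as for Napepld, are limited by the rounding to 0.1.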
